A study of Homo sapiens with 6 samples.

Results

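Ribosome assembly factors are the nucleolar proteins that fold, cut, modify and package ribosomal RNA before it leaves the nucleus. The 33 genes described here were named in a list of such factors, chosen with earlier results of these data known. They were found by symbol among the 53712 gene symbols of the count table. All 33 were present and all 33 passed the filter on low counts, as did 16873 genes in all. H9, the human embryonic stem cell line used, was grown in PXGL, a medium made to hold such cells in the naive state. One group of 3 libraries (SO-L1, the control) received a sense oligonucleotide to LINE-1 and the other 3 (ASO-L1) an antisense oligonucleotide to it, at 25 nM, and unsorted cells were collected after 48 hours. LINE-1 is a retrotransposon of the human genome. Until 24 hours both groups also had Y-27632 (10 uM, against the kinase ROCK), emricasan (5 uM, against caspases) and trans-ISRIB (0.7 uM, against the integrated stress response) in the medium. Whether the libraries of a group came from separate cultures is not said, so each p-value rests on the spread among these libraries alone, and that spread may be technical.

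Ribosomes are built in the nucleolus. RNA polymerase I makes a long precursor RNA, small nucleolar RNAs guide the modification of its bases, and separate sets of factors assemble the small and the large subunit. In embryonic stem cells nucleolin, the product of NCL, is known for its association with LINE-1 RNA, which is background to the study's title on LINE-1, PRC2 and nucleolar organisation.

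Library totals ran from 23330875 to 31164287 counts. Replicate 2 stood apart in both groups on the first principal component, at -21.3 against -38.3 and -40.5 for the other SO-L1 libraries and at 58.9 against 22.3 and 18.9 for the other ASO-L1 libraries. Core pluripotency genes summed to between 2599 and 2837 CPM (library-scaled read counts) in SO-L1 and between 2235 and 2624 CPM in ASO-L1, with 1 of 5, PRDM14, called lower (-0.39). Of 8 tested naive markers 2 were called higher (KLF4 and TFCP2L1) and 3 lower (DPPA3, DNMT3L and SUSD2) after ASO-L1. The sum of 9 naive genes was 265 to 271 CPM in SO-L1 and 251 to 286 CPM in ASO-L1. The naive marker KLF17 lay between 0.544 and 0.936 CPM in SO-L1 and between 0.263 and 0.552 CPM in ASO-L1. DNMT3L lay between 76.9 and 82.7 CPM in SO-L1 and between 49.3 and 63.1 CPM in ASO-L1. Of 4 primed markers tested, 3 were called higher, and their sum was 50.6 to 63.6 CPM in SO-L1 and 79.2 to 102 CPM in ASO-L1. Markers of other lineages stood at 12.6 to 14.9 CPM in SO-L1 and 14.5 to 24.2 CPM in ASO-L1 for 6 trophectoderm genes, with CDX2 called higher, and at 6.92 to 7.69 and 7.37 to 11.9 CPM for 4 primitive endoderm genes, with GATA6 and SOX17 called higher. The 3 amnion genes summed to 2.30 to 3.03 and 2.64 to 5.00 CPM, with none called among 2 tested by edgeR. The sum of 6 fibroblast genes was 471 to 532 and 525 to 576 CPM and came mostly from COL1A1, which was called higher, and COL1A2, while the fibroblast gene DCN did not exceed 0.326 CPM. The part of these marker changes in the results below was not tested, and in bulk RNA fewer cells of a type and less RNA per cell cannot be told apart.

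After ASO-L1, 12 of the 33 ribosome assembly factors rose and 3 fell. The increases were small, from 1.15-fold for DKC1 to 1.40-fold for NOP56, and the decreases were to 0.807 of the control level for HEATR1, 0.80 for DDX21 and 0.786 for UTP20. The 12 increases were TCOF1, NCL, NOP56, NOP58, DKC1, WDR43, RRP12, BYSL, PES1, NIP7, MKI67IP and NOP2. Calls were made with edgeR (quasi-likelihood F-test) at a Benjamini-Hochberg adjusted p under 0.05 over all tested genes. Of all tested genes 18.0% were called higher and 15.7% lower, against 36.4% and 9.09% of the 33. Because the 33 were chosen with earlier results of these data known, these shares are a description and not an independent test. The median log2 fold change of the 33 was 0.15, against -0.01 for all tested genes, whose middle 50% lay between -0.26 and 0.27. For 17 of the 33 the lowest ASO-L1 library exceeded the highest SO-L1 library and for 3 the order was the opposite, where the shares over all tested genes were 25.8% and 25.1%. The summed level of the 33 was 9536, 8840 and 9363 CPM in SO-L1 libraries 1 to 3 and 9926, 9803 and 10233 CPM in ASO-L1 libraries 1 to 3. Without NCL and NPM1 these sums were 5391, 5202 and 5376 against 5603, 5611 and 5753 CPM, so the groups did not overlap either way.

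The calls depended on single libraries and on the size of change asked for. Without SO-L1 replicate 3 the counts were 5 higher and 0 lower by edgeR (3 lower at an unadjusted p under 0.05), where 9.41% and 8.07% of all tested genes were called, and without SO-L1 replicate 1 they were 9 and 1 (10.1% and 8.51%). Without ASO-L1 replicate 3 they were 7 and 3 (16.5% and 14.5%). Without replicate 1 of both groups they were 2 and 0 (4.45% and 2.50%, with 3 lower at an unadjusted p under 0.05), and without replicate 3 of both groups 5 and 1 (9.64% and 7.23%). Tested by edgeR against a 1.2-fold change, NOP56 alone was higher and 0 were lower (7.47% and 4.77%, with 5 and 0 of the 33 at an unadjusted p under 0.05). On all libraries DESeq2 called 12 and 3 (17.4% and 14.8%) and limma-voom 13 and 3 (18.1% and 15.6%). With the replicate block the counts were 17 and 3, where 23.3% and 22.5% of all tested genes were called. In the authors' deposited table, with 20964 genes and no calls of its own, 8 of the 33 were higher and 3 lower at an adjusted p under 0.05, as were 11.7% and 9.77% of all its genes.

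**Figure D1:**
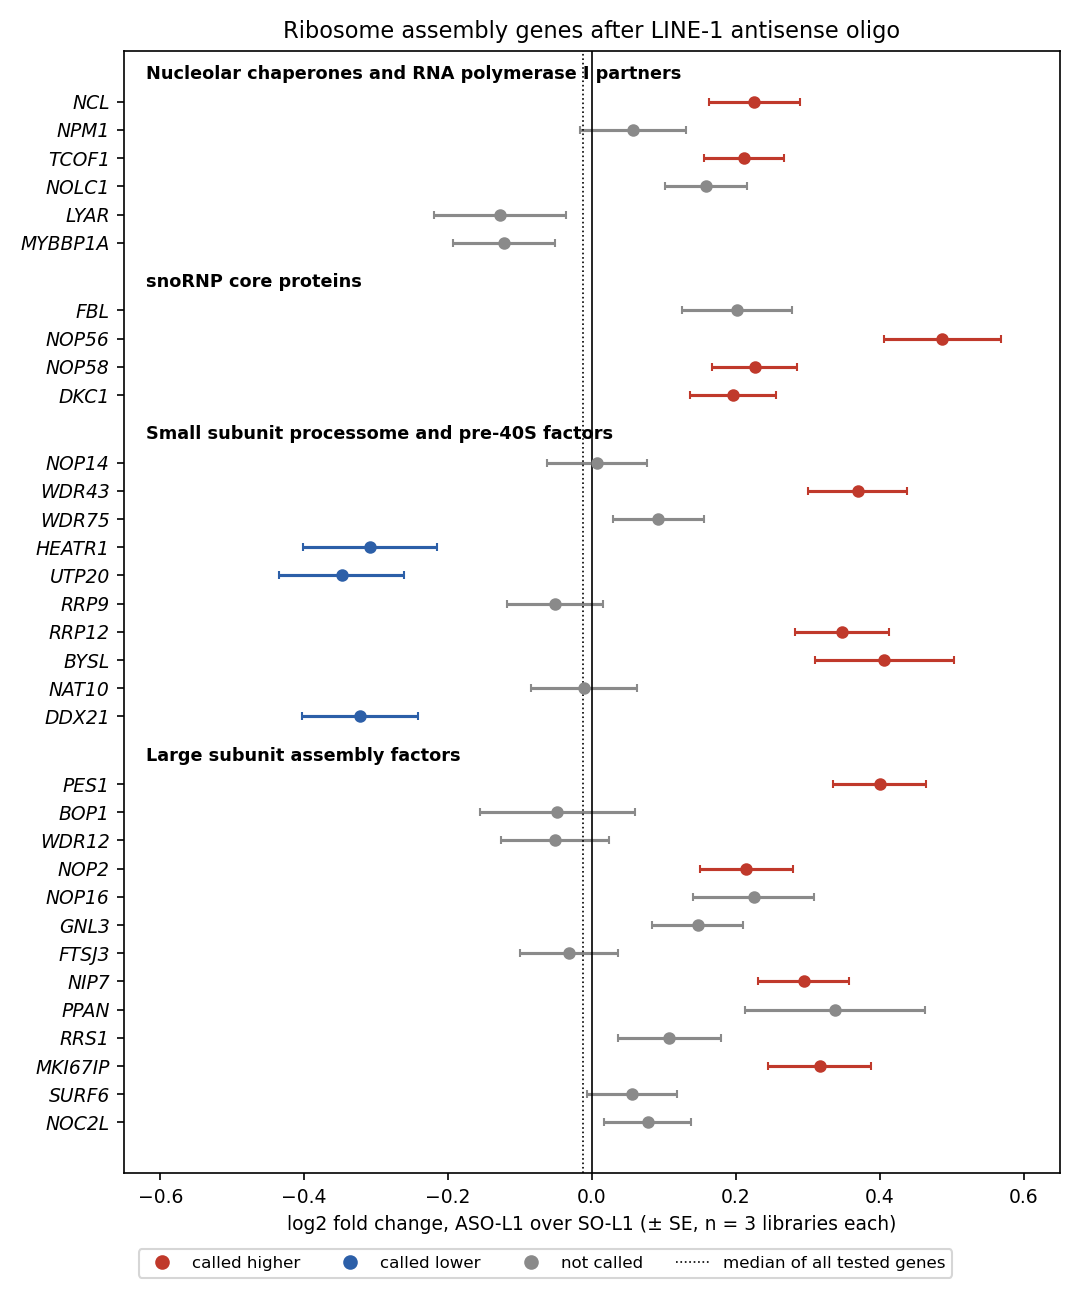
Log2 fold change of ASO-L1 over SO-L1 for each of the 33 genes, grouped by role. Points are edgeR estimates from 3 libraries per group, bars are standard errors, and colour marks the call at an adjusted p under 0.05; 12 points are called higher, 3 are called lower, and the dotted line marks the median of all tested genes at -0.01.

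The promoters of these genes were searched for 4 short motifs in RefSeq windows of build GRCh38.p14, each from 250 bases before to 50 bases after a transcription start. Windows were found for 27 of the 33 genes, 9 of the 12 that rose and all 3 that fell, and some genes had more than 1. The canonical E-box CACGTG, a sequence known to be bound by the MYC family and other helix-loop-helix factors, reads the same on both strands. It was held by 14 of the 27 genes (51.9%), against 12.4% of 10930 tested genes with a window and 8.77% of 27305 genes with one. It was present in 4 of the 9 genes that rose, 2 of the 3 that fell and 8 of the 15 not called. In 8 genes (29.6%) it began within the first 50 transcribed bases, against 1.47% of tested genes. The GC box GGGCGG on either strand was held by 20 of the 27 (74.1%, against 76.4% of tested genes), the ETS core CCGGAAG by 8 (29.6% against 20.4%) and TATAAA by UTP20 alone (3.70% against 8.72%). No E-box match shared a base with a match to another of these motifs, and no GC box match shared one with an ETS core match. The stretches around the E-box are shown for the 6 called genes that held it, and the part of the E-box in their changes was not tested. WDR43 (chr2:28894658-28894687, plus strand), BYSL (chr6:41921515-41921544, plus strand), PES1 (chr22:30591880-30591909, minus strand) and NOP2 (chr12:6568242-6568271, minus strand) rose, and their E-boxes began at transcribed base 4, 29, 14 and 36. UTP20 (chr12:101280083-101280112, plus strand) and DDX21 (chr10:68956604-68956633, plus strand) fell, and their E-boxes began at base -10 and -31. The capitals mark the E-box, and each stretch of 30 bases runs 5′ to 3′ on the gene's own strand.
WDR43: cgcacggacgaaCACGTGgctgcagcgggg
BYSL: ttcttcagtcccCACGTGcgatccttcccg
PES1: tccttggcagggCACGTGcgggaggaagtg
NOP2: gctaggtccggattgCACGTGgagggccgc
UTP20: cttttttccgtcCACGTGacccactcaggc
DDX21: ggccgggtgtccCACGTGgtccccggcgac

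Among the 6 nucleolar chaperones and partners of RNA polymerase I, 2 (33.3%) rose and 4 did not pass. For all tested genes the shares were 18.0% higher and 15.7% lower. NCL, the gene of nucleolin, a binding protein and chaperone of the precursor RNA, stood at 2026, 1829 and 1975 CPM in SO-L1 libraries 1 to 3 and at 2248, 2239 and 2329 CPM in ASO-L1 libraries 1 to 3. All ASO-L1 libraries were above all SO-L1 libraries, with a log2 fold change of 0.23 ± 0.06 (SE; adjusted p = 0.0206). TCOF1, the gene of treacle, which ties ribosomal DNA transcription to early processing, was at 340, 338 and 343 CPM and then at 382, 402 and 398 CPM. Its groups were far apart for their spread (0.21 ± 0.06, adjusted p = 0.0159). NOLC1, the gene of a phosphoprotein that accompanies treacle and snoRNPs, was at 487, 475 and 506 CPM against 537, 550 and 552 CPM. Those groups also did not overlap, yet the adjusted p was 0.0530 (0.16 ± 0.06), or 0.0307 with the replicate block.

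NPM1, the gene of nucleophosmin, which forms the outer layer of the nucleolus, was at 1981 ± 157 CPM (SD, n = 3) and 2060 ± 99.4 CPM (0.06 ± 0.07, adjusted p = 0.577). LYAR, a processing factor, was at 63.7 ± 5.57 and 58.3 ± 5.48 CPM (-0.13 ± 0.09) and MYBBP1A, a regulator of ribosomal DNA transcription, at 138 ± 4.58 and 127 ± 9.88 CPM (-0.12 ± 0.07). Both pointed down without a call. No member of this role was called lower by edgeR, DESeq2 or limma-voom, where the shares of all tested genes were 15.7%, 14.8% and 15.6%. At an unadjusted p under 0.05 by edgeR 0 were lower, and the share of all tested genes was not counted. With 6 genes these counts of 0 cannot be read as a trait of the role. The call of NCL was lost with SO-L1 replicate 2 (adjusted p = 0.0583) or 3 (0.0678) left out, with ASO-L1 replicate 1 (0.0562) or 3 (0.0752) left out and with upper-quartile scaling (0.0643). That of TCOF1 was lost without replicate 3 of SO-L1 (0.0652) or ASO-L1 (0.0538).

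The 4 core proteins of small nucleolar ribonucleoproteins (snoRNPs) all had positive log2 fold changes, and 3 of them (75%) passed. Among all tested genes 18.0% were called higher and 15.7% lower. NOP56, a scaffold of the box C/D snoRNP that places methyl groups, had the highest fold change of the 33. It was at 206, 201 and 196 CPM in SO-L1 and at 265, 320 and 260 CPM in ASO-L1, where replicate 2 was the highest (0.49 ± 0.08, adjusted p = 0.00288). NOP58, its partner in the same particle, was at 207, 197 and 190 CPM and then at 227, 232 and 236 CPM. The groups were separate by a narrower margin (0.23 ± 0.06, adjusted p = 0.0156). DKC1, the gene of dyskerin, the pseudouridine synthase of box H/ACA snoRNPs, was at 194, 180 and 189 CPM against 215, 208 and 221 CPM, again without overlap (0.20 ± 0.06, adjusted p = 0.0283).

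FBL, the gene of fibrillarin, the methyltransferase of the box C/D snoRNP, had 329 ± 32.1 CPM in SO-L1 and 378 ± 14.2 CPM in ASO-L1. Its log2 fold change of 0.20 ± 0.08 missed the threshold (adjusted p = 0.0646, or 0.0195 with the replicate block), and it was 0.12 without SO-L1 replicate 2. No member of this role was called lower by edgeR, DESeq2 or limma-voom, where the shares of all tested genes were 15.7%, 14.8% and 15.6%. At an unadjusted p under 0.05 by edgeR 0 were lower, and the share of all tested genes was not counted. With 4 genes these counts of 0 cannot be read as a trait of the role. NOP58 was lost without replicate 3 of SO-L1 (0.0873) or ASO-L1 (0.0524). DKC1 was lost without any 1 library other than ASO-L1 replicate 2 (0.0522 to 0.0988), with no filter (0.0790), with upper-quartile scaling (0.0885) and with library size alone (0.0570).

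The 10 factors of the small subunit were mostly parts of the processome that forms on the precursor RNA as it is made. They moved both ways, with 3 (30%) higher, 3 (30%) lower and 4 not called, against 18.0% and 15.7% of all tested genes. Their median log2 fold change was -0.002. BYSL, the gene of bystin, a late factor of the small subunit, was at 62.6, 64.0 and 60.7 CPM in SO-L1 and at 74.2, 96.8 and 77.4 CPM in ASO-L1. The groups were apart and ASO-L1 replicate 2 was well above its fellows (0.41 ± 0.10, adjusted p = 0.0109). WDR43, a part of the subcomplex that joins the processome first and is tied to transcription, was at 175, 176 and 185 CPM against 223, 251 and 218 CPM (0.37 ± 0.07, adjusted p = 0.00398). RRP12, a HEAT-repeat protein of subunit maturation and export, was at 103, 109 and 105 CPM against 127, 143 and 133 CPM (0.35 ± 0.07, adjusted p = 0.00431). Neither gene's groups overlapped.

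As the roles were assigned here, the decreases were all in this role. DDX21, the gene of an RNA helicase of the nucleolus, fell from 783, 770 and 792 CPM to 664, 544 and 669 CPM (-0.32 ± 0.08, adjusted p = 0.0132). UTP20, a large scaffold of the processome, fell from 147, 160 and 155 CPM to 130, 104 and 128 CPM (-0.35 ± 0.09, adjusted p = 0.0130). HEATR1, a large HEAT-repeat partner of WDR43 in the same subcomplex, fell from 204, 205 and 226 CPM to 181, 145 and 187 CPM (-0.31 ± 0.09, adjusted p = 0.0284). In each of the 3 the groups were separate and ASO-L1 replicate 2 was the lowest library. The role was not tested for carrying the decreases beyond the other roles.

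Of the rest, NOP14, a processome scaffold, was at 66.4 ± 3.32 and 66.7 ± 2.39 CPM. NAT10, an RNA acetyltransferase, averaged 175 CPM in SO-L1 and 174 CPM in ASO-L1 (-0.01 ± 0.07). RRP9, a protein of the snoRNP that guides the first cuts, was at 85.5 ± 3.27 and 82.5 ± 3.72 CPM, and WDR75, another partner of WDR43, at 135 ± 6.45 and 144 ± 4.80 CPM. Their log2 fold changes lay between -0.05 ± 0.07 for RRP9 and 0.09 ± 0.06 for WDR75, and their adjusted p-values between 0.282 and 0.949. Without SO-L1 replicate 1 the calls of BYSL (0.0514), DDX21 (0.0522) and HEATR1 (0.0705) were lost, and without SO-L1 replicate 3 those of BYSL (0.0525), DDX21 (0.0555), UTP20 (0.0523) and HEATR1 (0.117). Without ASO-L1 replicate 2 HEATR1 was still called, at -0.20 ± 0.06.

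UTP20 and HEATR1 also had the longest coding sequences of the 33, with 8355 and 6432 bases in GENCODE release 29. The next was TCOF1, which rose, with 4467. Over the 13613 tested genes matched to a coding length, 337 were at least as long as HEATR1, and of these 28.5% were called lower and 8.90% higher, against 17.1% and 19.3% of shorter genes. DDX21, the other decrease, has 2349 coding bases. The part of coding length in these decreases was not tested.

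In the 13 factors of large subunit assembly 4 (30.8%) rose and 9 did not pass. The shares over all tested genes were 18.0% higher and 15.7% lower. PES1, a member of the PeBoW complex that processes the large subunit RNA, was at 220, 212 and 211 CPM in SO-L1 and at 270, 305 and 273 CPM in ASO-L1. This was the smallest p of the 33, with groups well apart (0.40 ± 0.06, adjusted p = 0.00261). NIP7, a small factor bound to early large subunits, was at 84.5, 83.3 and 79.0 CPM against 100.3, 104 and 98.2 CPM (0.29 ± 0.06, adjusted p = 0.00699). MKI67IP, now named NIFK, a partner of the Ki-67 protein, was at 95.9, 89.9 and 88.0 CPM against 109, 123 and 109 CPM (0.32 ± 0.07, adjusted p = 0.00889). Both had no overlap between the groups. NOP2, a methyltransferase of the large subunit RNA, went from 120 ± 3.64 to 139 ± 7.54 CPM (0.21 ± 0.06, adjusted p = 0.0277).

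The other partners of PES1 in PeBoW were not called, with BOP1 at 19.1 ± 1.24 and 18.5 ± 2.16 CPM (-0.05 ± 0.11) and WDR12 at 84.8 ± 4.65 and 81.8 ± 5.70 CPM (-0.05 ± 0.08). In 3 genes the groups did not overlap but the test was missed without the replicate block and passed with it. NOP16, a large subunit factor, had a log2 fold change of 0.22 ± 0.08 (adjusted p = 0.0616, or 0.0213 with the block), and GNL3, the gene of the GTPase nucleostemin, one of 0.15 ± 0.06 (0.0972, or 0.0485), which was 0.096 without SO-L1 replicate 2. PPAN, a large subunit processing factor, was at 7.63 ± 0.833 and 9.66 ± 0.667 CPM (0.34 ± 0.12), with an adjusted p of 0.0589, or 0.0210 with the block. It had the fewest reads of the 33, from 164 to 321 per library.

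RRS1, a factor of large subunit RNA processing and 5S particle entry, was at 66.1 ± 3.21 and 71.2 ± 3.77 CPM and SURF6, a nucleolar matrix protein, at 128 ± 3.58 and 133 ± 6.27 CPM. FTSJ3, a methyltransferase, was at 157 ± 5.34 and 154 ± 10.9 CPM and NOC2L, an assembly factor that also represses transcription, at 226 ± 10.5 and 239 ± 5.73 CPM. Their log2 fold changes ran from -0.03 ± 0.07 for FTSJ3 to 0.11 ± 0.07 for RRS1 and none passed. No member of this role was called lower by edgeR, DESeq2 or limma-voom, where the shares of all tested genes were 15.7%, 14.8% and 15.6%. At an unadjusted p under 0.05 by edgeR 0 were lower, and the share of all tested genes was not counted. With 13 genes these counts of 0 were not tested as a trait of the role. NOP2 was lost without SO-L1 replicate 1 (0.0795) or 3 (0.121), without ASO-L1 replicate 3 (0.0559), with upper-quartile scaling (0.0552), library size alone (0.0542) or no filter (0.0555), and MKI67IP without SO-L1 replicate 3 (0.0514).

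**Figure D2:**
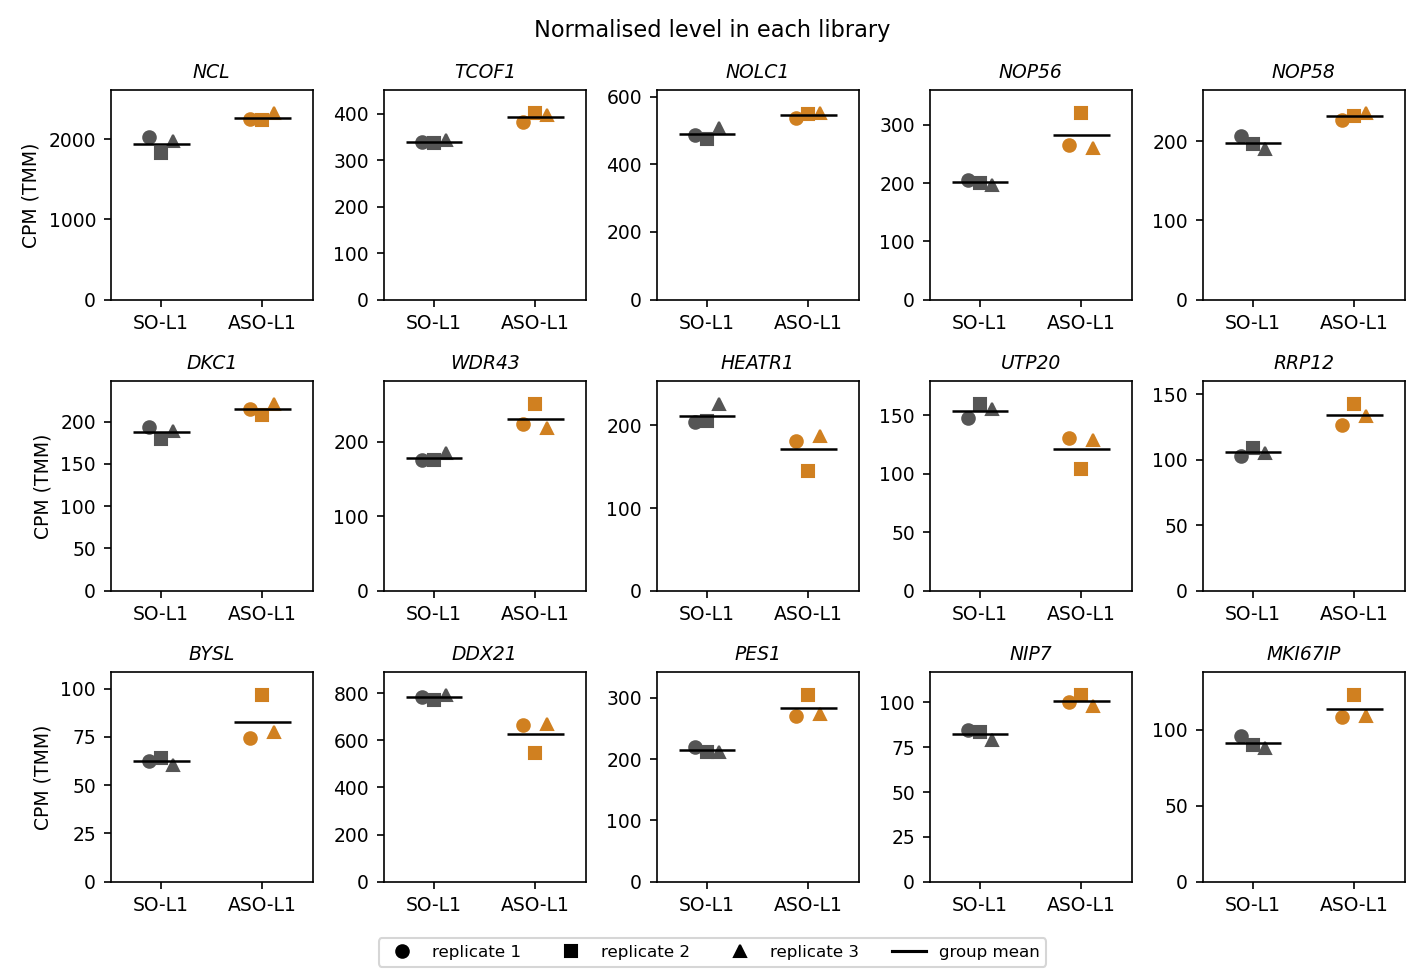
TMM-normalised level (CPM, from 0) in each library for the 12 genes with the smallest p in their role and the 3 genes that fell. Symbols mark replicate numbers 1 to 3 and lines the group means; in every panel the SO-L1 and ASO-L1 libraries are separate, and ASO-L1 replicate 2 is the lowest library for HEATR1, UTP20 and DDX21.

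Genes of 1 complex were also compared within each library. The ratio of 2 genes' counts within a library does not depend on scaling between libraries, and 6 such ratios between known partners were taken, chosen after the changes above were seen. The log2 ratio of WDR43 to HEATR1 was -0.22, -0.23 and -0.29 in SO-L1 and 0.30, 0.79 and 0.22 in ASO-L1, a difference of 0.68 ± 0.18 (SE). The ratio of PES1 to WDR12 went from 1.33, 1.42 and 1.27 to 1.68, 2.02 and 1.67, a difference of 0.45 ± 0.12, and that of PES1 to BOP1 differed by 0.45 ± 0.16. Each of these ratios was higher in all ASO-L1 libraries than in any SO-L1 library, and so were those of WDR43 to WDR75 (0.27 ± 0.09) and NOP56 to NOP58 (0.25 ± 0.10). The ratio of NOP56 to FBL overlapped between groups (0.28 ± 0.12). Two-sided exact permutation tests of 3 against 3 libraries gave p = 0.1 for the 5 ratios without overlap, the smallest value this design allows, and p = 0.2 for the sixth, or 0.12 and 0.2 after Benjamini-Hochberg adjustment over the 6. None of the 6 passed 0.05, which this test cannot reach. The upper gene of each ratio, WDR43, PES1 or NOP56, had already been called higher with separate groups in these libraries. For WDR43 to HEATR1 the lack of overlap was fixed beforehand, because both genes had separate groups in opposite directions. The ratios therefore restate the values above and are no separate support for an imbalance between partners.

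**Figure D3:**
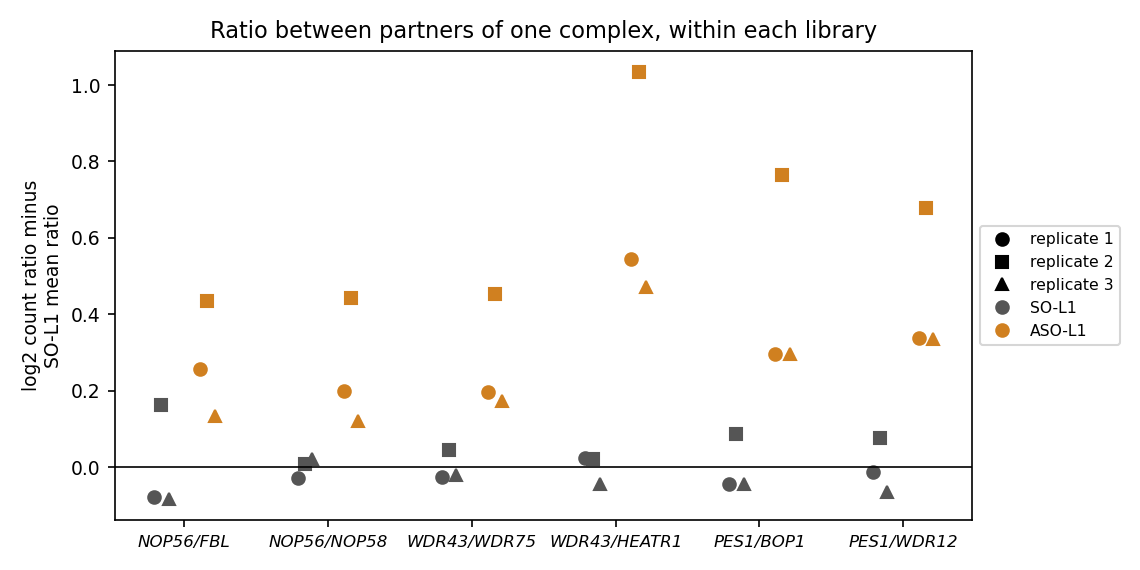
Log2 ratio of read counts between 2 partners of 1 complex in each library, minus the mean of the SO-L1 libraries. Grey is SO-L1, orange is ASO-L1 and symbols mark replicate numbers; orange lies above grey for all ratios except NOP56/FBL, and ASO-L1 replicate 2 is the highest in each.

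The differences were uneven across replicate numbers. Within replicate numbers, 20 of the 33 were higher in ASO-L1 at all 3 numbers, 5 were lower at all 3 and 8 were mixed. The same count was not made over all tested genes, so these counts cannot be read as a trait of the 33. In 13 of the 15 called genes and 25 of the 33 the difference was largest at number 2, against 55.8% of all tested genes. The share among all called genes was not counted. For NOP56 it was 0.36, 0.67 and 0.41 log2 units at numbers 1, 2 and 3, for UTP20 -0.18, -0.62 and -0.27, and for RRP12 a more even 0.30, 0.39 and 0.35. Without replicate 2 of both groups all 15 calls remained and 3 were added, for 15 higher and 3 lower, where 21.6% and 20.1% of all tested genes were called.

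Several of the genes carry small nucleolar RNA genes within their own span. GENCODE release 29 placed at least 1 on the same strand inside 7 of the 33, which were NCL, NOP56, NOP58, DKC1, WDR43, GNL3 and PPAN. Of these 5 rose and 2 were not called, with log2 fold changes from 0.15 for GNL3 to 0.49 for NOP56 and a median of 0.23. The other 26 had 7 higher, 3 lower and 16 not called, with a median of 0.07. Over all tested genes 18.0% were called higher and 15.7% lower. The difference between these 2 classes was not tested, and host genes beyond the 33 were not counted.

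Overlap with other genes could touch some of these values, because no source used here says whether reads were counted by strand. Whether it did was not tested. In GENCODE release 29 the gene LGALS8 covers 23.2% of the exonic bases of HEATR1 on the other strand. LGALS8 was called lower too, from 13.9 ± 1.68 to 9.76 ± 1.60 CPM (-0.51 ± 0.14), where HEATR1 averaged 212 and 171 CPM. COG8 covers 20.2% of NIP7 on the other strand and was not called (0.10 ± 0.08). On the same strand a readthrough gene covers part of PPAN, with 59.8% of its exonic bases shared with other genes, and 54.4% of those of NOP2 are shared. The 45 NPM1 pseudogenes in the table held 0.161% as many reads as NPM1. The readthrough gene PPAN-P2RY11 held 0 reads over all libraries, against 1423 for PPAN. How the authors treated reads that match 2 genes is not stated here, and its part in the low count of PPAN was not tested.

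Beyond the 33, 139 other genes of ribosome assembly were found in the table, in lists also chosen with earlier results known. Of 138 tested 52 (37.7%) rose and 7 (5.07%) fell, with a median of 0.09, against 18.0%, 15.7% and -0.01 for all tested genes. These lists are therefore no independent test of the pattern in the 33. Among 49 further small subunit factors 20 (40.8%) rose and 3 (6.12%) fell. UTP14A, a processome factor, rose by 0.47 ± 0.07 (adjusted p = 0.00214) and UTP4, in the table as CIRH1A, by 0.41 ± 0.06 (0.00222). RIOK2, a kinase of late maturation (-0.52 ± 0.09, 0.00390), and NOL10, a nucleolar factor (-0.39 ± 0.09, 0.00781), fell. UTP4 is also a partner of WDR43. So are UTP15 (0.25 ± 0.07, 0.0200) and NOL11 (0.06 ± 0.06, 0.50), both named after their values were seen, and of the 6 genes of that subcomplex 3 rose, HEATR1 fell and WDR75 and NOL11 were not called. UTP15 was lost without SO-L1 replicate 1 (0.0635) or 3 (0.0900) and with no filter (0.0535).

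Among 52 further large subunit factors 22 (42.3%) rose and 1 (1.92%) fell, against 18.0% and 15.7% of all tested genes. RPF1, a processing factor, went from 44.0 ± 1.86 to 63.9 ± 5.06 CPM (0.54 ± 0.08, adjusted p = 0.00203) and DDX24, a helicase, from 243 ± 13.3 to 339 ± 40.9 CPM (0.48 ± 0.09, 0.00367). NVL, an ATPase that releases factors from large subunits, was the decrease, from 72.9 ± 1.27 to 51.6 ± 7.24 CPM (-0.50 ± 0.10, 0.00471).

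Of 14 further snoRNP and snoRNP assembly genes 4 (28.6%) rose and 1 (7.14%) fell, with a median of 0.01 and with RPAP3 (0.40 ± 0.08, adjusted p = 0.00507) and NAF1 (0.34 ± 0.07, 0.00769) higher and ZNHIT6 (-0.25 ± 0.09, 0.0443) lower. Of 23 exosome and RNase MRP genes, which trim and cleave the precursor, 6 (26.1%) rose and 2 (8.70%) fell, with a median of -0.05, against 18.0%, 15.7% and -0.01 for all tested genes. RPP25 went from 51.2 ± 3.04 to 80.1 ± 15.5 CPM (0.64 ± 0.12, 0.00472) and EXOSC6 rose by 0.42 ± 0.09 (0.00629). The nuclease gene XRN2 (-0.27 ± 0.09, 0.0354) and EXOSC1 (-0.24 ± 0.08, 0.0450) fell. EXOSC1 was lost without any 1 of the 6 libraries (0.0714 to 0.153), by DESeq2 (0.0521) and with no filter (0.0560). ZNHIT6 was lost without any 1 library other than ASO-L1 replicate 2 (0.0613 to 0.162), by DESeq2 (0.0520) and by limma-voom (0.0502), and XRN2 was lost without SO-L1 replicate 1 (0.123) or 3 (0.142) and without ASO-L1 replicate 1 (0.0565). Over the 138 tested genes the counts were 32 and 4 with SO-L1 replicate 1 left out, where 10.1% and 8.51% of all tested genes were called, 27 and 4 with SO-L1 replicate 3 left out (9.41% and 8.07%), and 39 and 4 with ASO-L1 replicate 1 left out (15.1% and 10.8%). With the replicate block 59 rose and 11 fell (23.3% and 22.5% of all tested genes).

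**Figure D4:**
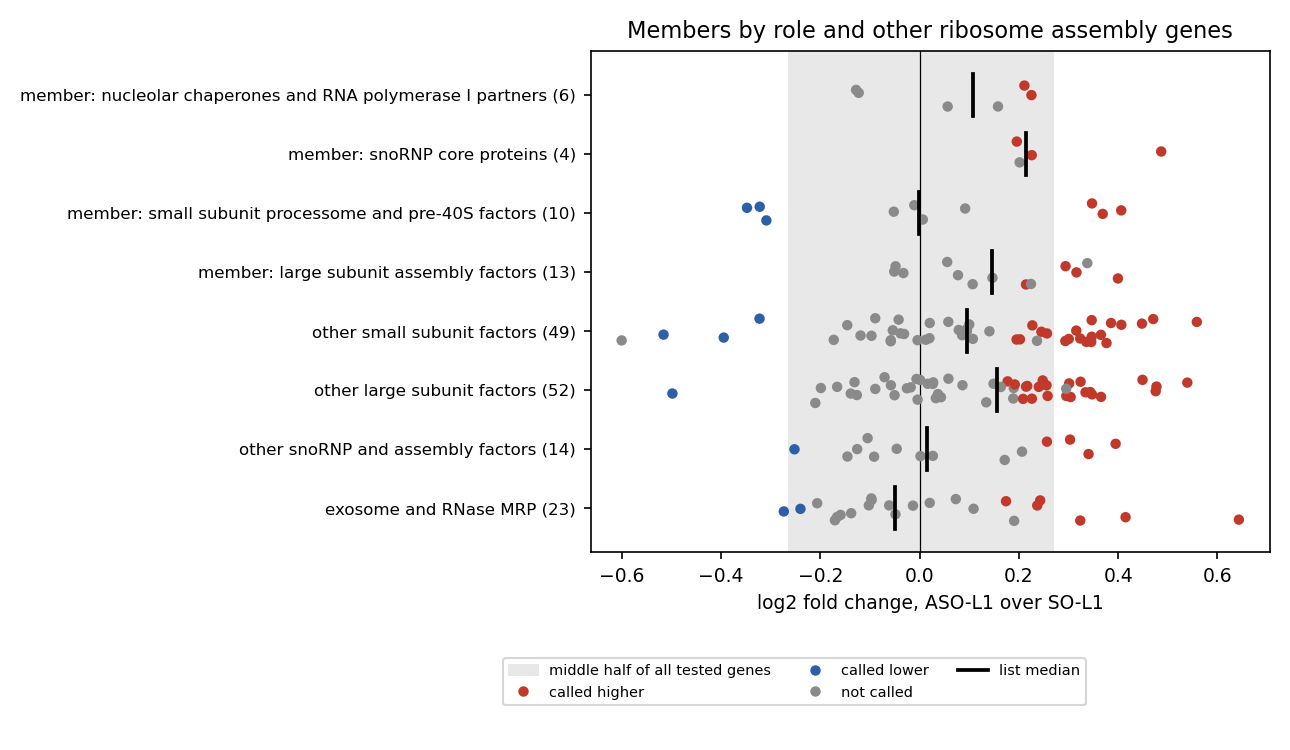
Log2 fold change of ASO-L1 over SO-L1 for the 33 genes by role (upper 4 rows) and for 138 other ribosome assembly genes by list (lower 4 rows), with the number tested in brackets. Each point is a gene coloured by its call, black bars are list medians, and the grey band spans the middle 50% of all tested genes, from -0.26 to 0.27; the row medians run from -0.05 to 0.21.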

How the data were processed

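Poly(A) RNA of 3 SO-L1 and 3 ASO-L1 libraries was sequenced after directional library preparation from 200 ng of RNA. The deposited raw counts per gene symbol come, per the submitters' processing notes, from reads on build hg19, and the notes name TopHat2 2.0.13, Subread 1.5.0 with featureCounts, and Trim Galore 0.4.0. The gene annotation, the strand setting and the duplicate remover are not given in the sources used. Duplicate removal by read position can cap the counts of strongly expressed genes such as NCL and NPM1. Per the file headers, the authors' table of 1 comparison holds log2 fold changes, mean log2 expression, a moderated t and a log-odds score, and p-values; its model is not stated. A deposited table of batch-corrected log2 values was not used.

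The 33 genes and all lists were chosen with earlier results of these data known. With edgeR 4.0.16, genes passed filterByExpr (minimum count 10, minimum total 15), counts were scaled by TMM, and the robust quasi-likelihood F-test, two-sided and with group as its only term, was used with Benjamini-Hochberg adjustment over 16873 genes. A standard error (SE) is the unshrunken log2 fold change over the square root of F. CPM are TMM-normalised and errors after CPM are SDs over 3 libraries. The common biological coefficient of variation was 10.2%. Every one of the 33 is named. Values in each library are given for the 3 smallest p in each role and for every decrease, and up to 2 called genes per direction are named in each other list.

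Chi-square over degrees of freedom ran from 2.05 to 24.5 between libraries of 1 group, beyond sampling noise. Deviations from the group means correlated by 0.102, 0.377 and 0.211 between libraries numbered 1, 2 and 3. The numbers were therefore taken as pairs in the replicate block, in differences within numbers and in leaving out a number, but not in the main test. The crossed values for numbers 1 and 3 were higher than that for number 1 (0.156 and 0.162), so this does not settle how numbers 1 and 3 pair. Alternatives were a replicate block, 3 other scalings, 2 other filters, DESeq2 1.42.0, limma-voom (limma 3.58.1), a test against a 1.2-fold change, and leaving out libraries. Older symbols were matched through the lists. Promoter sequences came from RefSeq (GRCh38.p14), and overlaps and coding lengths from GENCODE release 29 (GRCh38), so no coordinate of the hg19 counts is given.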

Additional observations from a re-analysis of the deposited data

How the results depend on the processing

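Tested against a 1.2-fold change instead of against none, 1 of the 33 genes was called higher (NOP56) and 0 lower by edgeR (5 and 0 at an unadjusted p under 0.05, against 3 lower by DESeq2 and limma-voom in the test against no change). The same 1.2-fold test called 7 of the other 138 higher and 2 lower, where 7.47% and 4.77% of all tested genes were called. Adding the replicate block gave 11 lower among the 138 in place of 7, where the share of all tested genes called lower was 22.5% in place of 15.7%. It added calls for NOLC1, FBL, NOP16, GNL3 and PPAN among the 33 and ended none. Leaving out 1 library, or 1 replicate number of both groups, gave 2 to 15 of the 33 higher and 0 to 3 lower, and 9 to 57 and 0 to 12 of the 138. The lower ends came without replicate 1 of both groups, where 4.45% and 2.50% of all tested genes were called. Leaving out SO-L1 replicate 3 alone also gave 0 of the 33 lower, where 8.07% of all tested genes were called lower. The upper ends came without replicate 2 of both groups, where the shares were 21.6% and 20.1%. The count of 3 lower among the 33 was also reached with other libraries left out, such as ASO-L1 replicate 2. Without replicate 1 of both groups 2 of the 15 calls remained, NOP56 and PES1, and without replicate 3 of both groups 6 did, where 4.45% and 9.64% of all tested genes were called higher. Every one of the 15 calls among the 33 remained with RLE scaling, by DESeq2, by limma-voom and with a CPM above 1 in 3 libraries. Among the 138, ZNHIT6 was lost by DESeq2 and limma-voom and EXOSC1 by DESeq2. None of the 15 called genes of the 33 changed sign under any alternative. Genes that were not called and lay near 0 did. NOP14 was at -0.035 with upper-quartile scaling, -0.028 with library size alone, -0.0051 with no filter and -0.037 to 0.048 with libraries left out. Leaving out libraries also gave both signs for NPM1 (-0.0095 to 0.12), RRP9 (-0.098 to 0.0045), NAT10 (-0.059 to 0.060), BOP1 (-0.10 to 0.044), WDR12 (-0.10 to 0.0051) and FTSJ3 (-0.089 to 0.014). The cause of these shifts was not tested. The partner ratios do not depend on scaling or filter.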

Other observations

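In the authors' deposited table the 3 decreases were HEATR1 (-0.33, adjusted p = 0.0416), UTP20 (-0.36, 0.0230) and DDX21 (-0.34, 0.0211), and NOP56 stood at 0.47 (0.0065). The sign in the authors' deposited table matched that found here for 32 of the 33, the exception being NOP14, at -0.005.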
